A study of Homo sapiens with 2 samples.

Results

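MicroRNAs are short RNAs that lower the output of messenger RNAs by base pairing, chiefly through a seed near their 5′ end. Each is made in steps: RNA polymerase copies a long primary transcript, the nuclear enzyme Drosha with its partner DGCR8 cuts out a hairpin precursor, exportin 5 carries the hairpin to the cytoplasm, and Dicer trims it to the mature strand that an Argonaute protein holds. Many hairpins lie in introns of protein-coding genes, and others lie in long non-coding transcripts known as host genes. In mammary and other epithelia the best known are miR-205 and the miR-200 family, which hold down the transcription factors ZEB1 and ZEB2 and so help to keep cells epithelial.

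The genes described here are the microRNA genes of 1 array comparison, chosen by their level: genes whose annotated symbol starts with MIR and a digit or with MIRLET7, and whose log2 expression value was at least 3.0 in 1 or both of the 2 arrays. Of 14812 genes with a symbol, 1047 had such a name and 360 of those reached 3.0. The 360 are 348 precursor genes and 12 host transcripts, whose symbols end in HG. The other 687, 674 precursors and 13 host transcripts, stayed below 3.0 in both arrays. Because the level itself chose the genes, their levels and the differences between the same 2 arrays are a description and carry no test. Precursors at the edge show how little the threshold separates: MIR520E (3.001 in the EGFP vector array), MIR3689E (3.002) and MIR585 (3.01 in both arrays) were just inside, while MIR421 (2.95 at its higher value), MIR3200 (2.99) and MIR3973 (2.99) were just outside.

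The RNA came from MCF-10A, an established line of non-tumorigenic human mammary epithelial cells. One array holds cells that stably expressed EGFP, a green fluorescent protein, from the vector alone, and the other holds cells that stably expressed EGFP-ARHGAP4, the same protein fused to ARHGAP4. The sources used here do not say whether each line is a clone or a pool. Total RNA was amplified with a whole-transcript kit and hybridised to an Affymetrix array, so a precursor gene's value stands for any RNA that holds its hairpin sequence and not for the mature strand. Each group is 1 array, so replicate error is unknown and neither p-values nor standard errors are given. Of each pair of log2 values the first is from the EGFP vector array and the second from the EGFP-ARHGAP4 array, and a difference is the second less the first. A low reading in bulk RNA cannot tell fewer cells from less RNA per cell. ARHGAP4 stood at 4.49 and 6.68, the direction of the labels. Of 13 listed epithelial markers 7 were measured, at 6.58 to 10.4 in the first array and 6.96 to 10.4 in the second. The fibroblast markers DCN and LUM lay between 1.73 and 2.05 and the endothelial marker VWF at 2.68 and 2.80, while of 3 immune markers CD68 stood at 7.32 and 7.80, CD14 at 5.84 and 5.48 and the T cell marker CD2 at 2.96 and 3.18.

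The mature strands of 3 epithelial precursors are shown first (RefSeq, GRCh38.p14), because MIR205 had the highest mean level and MIR200C 1 of the largest differences, with the seed, bases 2 to 8, in capitals. The strand of miR-205 is read from the plus strand at chr1:209432166-209432187, that of miR-200c from the plus strand at chr12:6963742-6963764 and that of miR-141 from the plus strand at chr12:6964155-6964176. miR-200c and miR-141 carry different seeds, and the miR-200 family is divided by these seeds.
hsa-miR-205-5p: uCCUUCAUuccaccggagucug
hsa-miR-200c-3p: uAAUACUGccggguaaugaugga
hsa-miR-141-3p: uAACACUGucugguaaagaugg

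The whole hairpins, which are what the array can see, are shown for MIR205 (chr1:209432133-209432242, plus strand, 110 bases, 48.2% G and C) and MIR200C (chr12:6963699-6963766, plus strand, 68 bases, 55.9% G and C), with the mature strands of both arms in capitals.
MIR205: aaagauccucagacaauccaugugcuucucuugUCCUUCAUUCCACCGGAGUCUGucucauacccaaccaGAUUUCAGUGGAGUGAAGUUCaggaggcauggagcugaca
MIR200C: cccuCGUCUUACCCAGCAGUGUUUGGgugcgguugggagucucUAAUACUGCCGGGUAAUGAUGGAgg

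MIR205 had the highest mean log2 value of the microRNA genes, standing at 9.04 with the EGFP vector and at 9.63 with EGFP-ARHGAP4, 1.51-fold higher in the latter. MIR200C stood at 2.83 and 4.09, 2.39-fold higher, and passed the level of 3.0 only in the second array. MIR141, its neighbour on chromosome 12, stood at 3.77 and 4.10, a difference of 0.33; it was named after its values were seen. MIR200C entered the set only through the EGFP-ARHGAP4 array, so its direction was fixed by the rule. Of the 7 measured epithelial marker genes 6 were higher in the EGFP-ARHGAP4 array, as were 1947 of the 5720 genes at 5.0 or more. EPCAM, a cell adhesion gene, differed by 1.20, CLDN1, a tight junction gene, by 0.97 and DSG3, a desmosome gene, by 0.71. KRT18 differed by 0.08, SFN by 0.02 and KRT5 by 0.02. Those 3 differences lie under 0.20, the pooled SD of the difference between features of 1 gene. KRT14, a basal keratin gene, was lower, at 9.21 and 6.96, and its difference of -2.25 was the largest of the 7. Their part in the precursor values was not tested. The remaining members of the miR-200 family, on chromosome 1, stayed below the level and were named after their values were seen: MIR200B stood at 2.50 and 2.77, MIR200A at 1.86 and 2.12, and MIR429 at 1.93 and 1.81.

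Over the 348 precursors the median log2 values were 3.96 and 3.98, and the median difference was 0 with quartiles of -0.23 and 0.26. Of the precursors, 170 were higher in the EGFP-ARHGAP4 array, 163 were lower and 15 (4.31%) held the same value in both to the last digit, as did 312 of the 10386 genes that reached 3.0. The median difference over those 10386 genes was -0.07. It was 0 over genes from 3.0 to under 5.0, the range of most microRNA genes, and -0.12 over genes at 5.0 or more. A difference of at least 2-fold was found for 3 microRNA genes on the higher side (0.833%) and 6 on the lower side (1.67%), all of them precursors; over all genes that reached 3.0 the shares were 0.809% and 0.684%. At 0.5 or more on the log2 scale lay 31 microRNA genes on the higher side (8.61%) and 41 on the lower side (11.4%), against 5.24% and 8.53% of all genes that reached 3.0. Most microRNA genes lie low, 266 of the 360 under 5.0, and among those 3 were higher and 6 lower by 2-fold, where genes of the same range gave 0.664% and 0.493%; past 0.5 lay 25 and 34 of the 266, against 5.98% and 6.28% of genes of that range. Nothing is read from these shares, since the rule used the same arrays. None of the 94 microRNA genes at 5.0 or more differed by 2-fold, where 0.927% of genes of that range were higher and 0.839% lower, so that a count of 0 is near the background. The rule weighs on these counts: 20 precursors reached 3.0 in the EGFP vector array alone and 21 in the EGFP-ARHGAP4 array alone, and these had to differ in that direction.

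**Figure D1:**
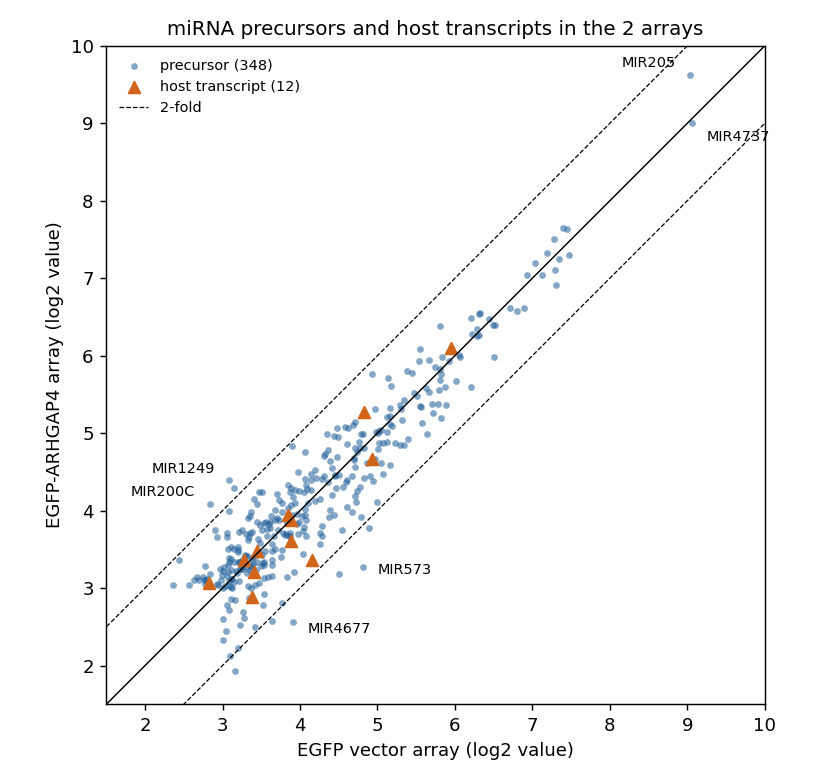
Log2 value of each of the 348 precursors (circles) and 12 host transcripts (triangles) in the EGFP vector array (x axis) and the EGFP-ARHGAP4 array (y axis); the solid line marks equal values and the dashed lines a 2-fold difference. The points lie along the line of equality, MIR205 is the highest, and the 9 precursors beyond the dashed lines all lie under 5.0.

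Of the 3 precursors at least 2-fold higher, MIR1249 stood at 3.09 and 4.39, 2.47-fold higher, and MIR200C followed. MIR642A, at 3.15 and 4.29, is the mean of 2 features that disagreed: the lower stood at 1.59 and 3.94 and the higher at 4.71 and 4.65. Its difference is therefore 2.34 on the one and -0.06 on the other, and the call rests on the dimmer feature. MIR637 differed by 0.94, MIR885 by 0.93, MIR3925 by 0.91, MIR4267 by 0.84, MIR483 by 0.84, MIR197 by 0.78 and MIR3691 by 0.74. Among these 10, MIR483, whose hairpin lies in an intron of the growth factor gene IGF2, had the highest level, 4.93 and 5.76. MIR200C, MIR885 and MIR4267 were below 3.0 in the EGFP vector array, so the rule fixed their direction.

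The lowest difference was that of MIR573, at 4.82 and 3.28, 2.91-fold lower. MIR4677 stood at 3.92 and 2.56, 2.55-fold lower, and MIR1206 at 4.50 and 3.18, 2.497-fold lower. MIR548AL stood at 3.16 and 1.93, MIR3922 at 4.89 and 3.77 and MIR1321 at 3.64 and 2.58, each between 2.10-fold and 2.34-fold lower. MIR579 differed by -0.97, MIR4487 by -0.96, MIR4298 by -0.95 and MIR550A3 by -0.93. Of these 10, only MIR573, MIR1206 and MIR3922 stayed at 3.0 or above in the EGFP-ARHGAP4 array, so the rule fixed the direction of the rest. MIR1206 is 1 of several microRNA genes of the PVT1 locus; there MIR1205, at 3.22 and 2.52, differed by -0.71, MIR1208, at 3.64 and 3.56, by -0.08, and MIR1207, below the level at 2.15 and 2.27, by 0.12. MIR1205 reached 3.0 in the EGFP vector array alone, so the rule fixed its direction. MIR1205, MIR1207 and MIR1208 were named after their values were seen, and the 4 neighbours did not share 1 direction.

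The mature strands of the precursors with the largest differences follow, with the seed in capitals, so that they can be set against each other. MIR200C is shown above and MIR1206 is not shown. The strands themselves were not measured. The precursor value of MIR1249 was higher, as was that of MIR642A as the mean of 2 features that disagreed. The precursor values of MIR573, MIR4677, MIR548AL, MIR3922 and MIR1321 were lower. MIR4677, MIR548AL and MIR1321 reached 3.0 in the EGFP vector array alone, so the rule fixed their direction. The strands of MIR1249 are read from the minus strand at chr22:45200958-45200979 and chr22:45200993-45201016, and that of MIR573 from the minus strand at chr4:24520252-24520275. The others are on plus strands: MIR642A at chr19:45674978-45674999 and chr19:45674943-45674964, MIR4677 at chr1:243346225-243346246 and chr1:243346188-243346209, MIR548AL at chr11:74399301-74399322, MIR3922 at chr12:104591694-104591715 and chr12:104591645-104591667, and MIR1321 at chrX:85835832-85835849. In the RefSeq genes used here MIR573, MIR548AL and MIR1321 lie in no other gene, and MIR1249, MIR642A, MIR4677 and MIR3922 lie in a gene of the same strand. These strands share no seed with each other.
hsa-miR-1249-3p: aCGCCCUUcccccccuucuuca
hsa-miR-1249-5p: aGGAGGGAggagaugggccaaguu
hsa-miR-642a-3p: aGACACAUuuggagagggaacc
hsa-miR-642a-5p: gUCCCUCUccaaaugugucuug
hsa-miR-573: cUGAAGUGauguguaacugaucag
hsa-miR-4677-3p: uCUGUGAGaccaaagaacuacu
hsa-miR-4677-5p: uUGUUCUUuggucuuucagcca
hsa-miR-548al: aACGGCAAugacuuuuguacca
hsa-miR-3922-3p: uCUGGCCUugacuugacucuuu
hsa-miR-3922-5p: uCAAGGCCagaggucccacagca
hsa-miR-1321: cAGGGAGGugaaugugau

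**Figure D2:**
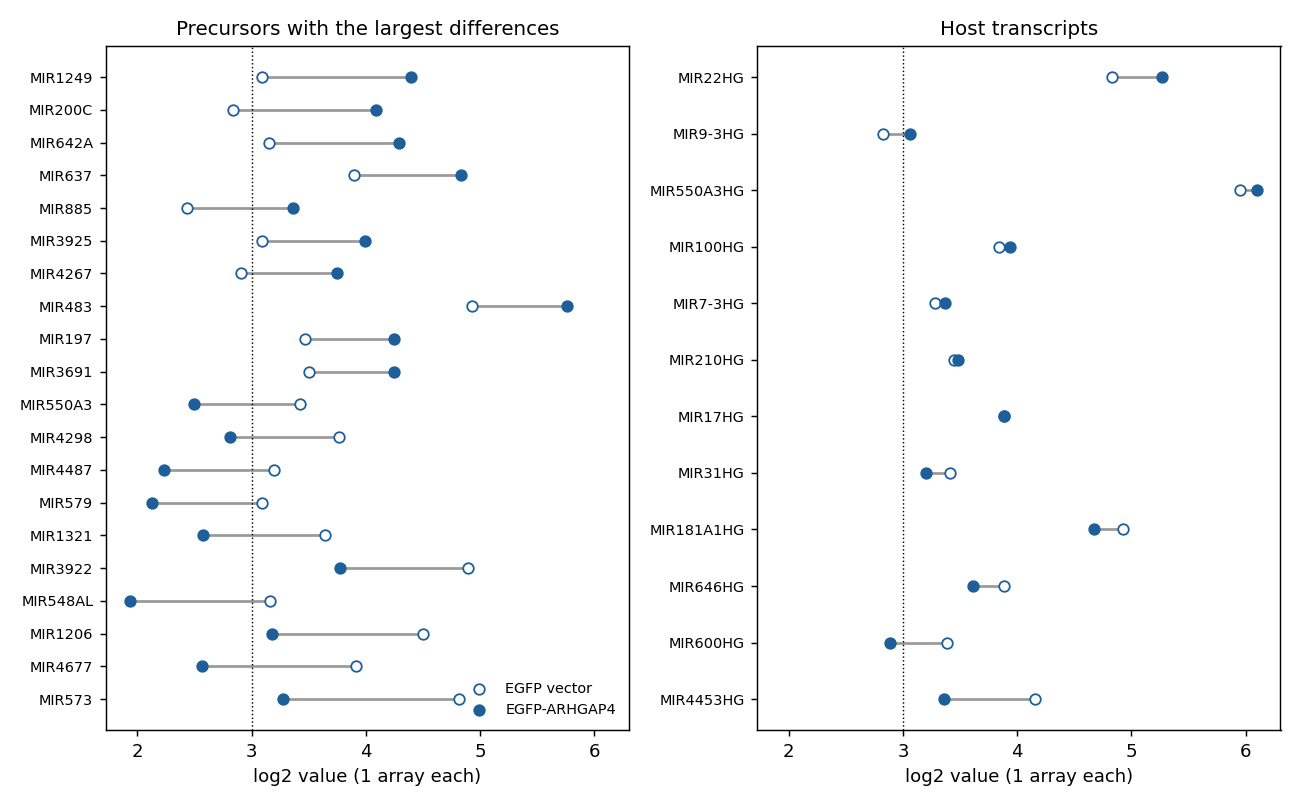
Log2 value in the EGFP vector array (open circles) and the EGFP-ARHGAP4 array (filled circles) of 20 precursors, the 10 most positive and the 10 most negative differences (left) and of the 12 host transcripts (right), ordered by difference; each circle is 1 array and the dotted line is the level of 3.0. The precursors shift by 0.74 or more either way, while no host transcript shifts by more than 0.80.

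Host transcripts are the long RNAs from which some hairpins are cut. None of the 12 differed by 2-fold, a count near the 0.809% and 0.684% of all genes that reached 3.0; 6 were higher, 5 lower and 1 equal, and the median difference was 0.02. MIR22HG, host of miR-22 and known as a transcript that stress induces, stood at 4.83 and 5.27, 1.36-fold higher and the largest difference upward. MIR4453HG stood at 4.15 and 3.36, 1.74-fold lower, and MIR600HG at 3.38 and 2.88, 1.42-fold lower. These 2 of 12 (16.7%) are the host transcripts past 0.5, both lower, against 8.53% of all genes that reached 3.0 on that side. MIR600HG reached 3.0 in the EGFP vector array alone, so the rule fixed its direction. MIR17HG, which yields the growth-promoting miR-17 to miR-92a cluster under MYC, held 3.88 in both arrays. MIR210HG, host of the hypoxia-induced miR-210, stood at 3.45 and 3.48, and MIR31HG at 3.41 and 3.21. MIR100HG, which carries miR-100, let-7a-2 and miR-125b-1, stood at 3.84 and 3.94. MIR181A1HG, host of miR-181a-1 and miR-181b-1, stood at 4.93 and 4.67. The highest was MIR550A3HG at 5.95 and 6.10, followed in the remaining set by MIR646HG at 3.88 and 3.61, MIR7-3HG at 3.28 and 3.37 and MIR9-3HG at 2.82 and 3.06.

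For 8 of the 12 host transcripts a precursor inside it was measured as well, and the differences of host and hairpin had the same sign in some cases only. MIR210 stood at 5.74 and 5.86, a difference of 0.12 where MIR210HG differed by 0.04. MIR181B1 differed by -0.38 and its host by -0.26, MIR646 by -0.41 and its host by -0.27, and MIR9-3 by 0.67 and its host by 0.24. MIR9-3 and MIR9-3HG both reached 3.0 in the EGFP-ARHGAP4 array alone, so the rule fixed their shared direction. MIR550A3 went the other way from its host, -0.93 against 0.15. It reached 3.0 in the EGFP vector array alone, so the rule fixed the direction of MIR550A3. Below the level of 3.0 lay MIR31, at 2.74 and 2.04 inside MIR31HG, MIR181A1 at 1.61 and 1.38 inside MIR181A1HG, MIR7-3 at 2.14 and 2.09 inside MIR7-3HG, and the 3 hairpins of MIR100HG, which ranged from 1.43 to 2.45. Values of different genes are not comparable as amounts, since each has its own probes and length.

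By RefSeq positions, 184 of the 348 precursors lay inside another gene on the same strand, 30 on the opposite strand only and 110 in no other gene, while 24 could not be placed. Of precursors that could be placed, 56.8% of those at 3.0 or more and 54.8% of those below lay in a gene on their own strand. A measured gene on the same strand was found for 104 precursors, in 95 genes. Across these 104 pairs the differences of precursor and gene correlated with Pearson's r = 0.07 and a Spearman coefficient of 0.03. The same sign was found in 48 pairs, counting MIR4730 in ENDOV and MIR606 in LRMDA, where both differences were 0. Some precursors of these pairs, among them MIR3666, MIR4677 and MIR9-3, reached 3.0 in 1 array alone, so the rule fixed their sign. The points share the 2 arrays and some share a gene. Levels correlated with r = 0.15 and a Spearman coefficient of 0.11. Of the 17 pairs whose gene differed by at least 0.5, 8 precursors had the sign of their gene and 2, MIR642A and MIR3922, were past 0.5 themselves. MIR642A was so only as the mean of 2 features that disagreed.

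In 4 pairs the gene differed by 2-fold while the precursor did not; they were named after their values were seen. MIR3189 lies in GDF15, a secreted stress cytokine that p53 induces: GDF15 stood at 5.88 and 7.94, while MIR3189 stood at 3.48 and 3.58. MIR4420 lies in LAPTM5, a lysosomal membrane protein gene, which stood at 4.45 and 6.497, while MIR4420 stood at 3.32 and 3.20. MIR3666 lies in FOXP2, a transcription factor gene, at 2.81 and 4.25, and itself stood at 2.94 and 3.03. MIR3666 reached 3.0 in the EGFP-ARHGAP4 array alone, so the rule fixed its direction. MIR4673 lies in NOTCH1, a receptor gene, at 6.63 and 7.75, and itself stood at 7.47 and 7.30. Conversely, MIR1249 lies in KIAA0930, which differed by 0.18, and MIR4677 in SDCCAG8, which differed by 0.05. The direction of MIR4677 was fixed by the rule, since it reached 3.0 in the EGFP vector array alone. MIR3922 lies in CHST11, a chondroitin sulfotransferase gene, which differed by -0.55 beside -1.12 for the precursor, and MIR642A in GIPR, an incretin receptor gene, which differed by 0.53.

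**Figure D3:**
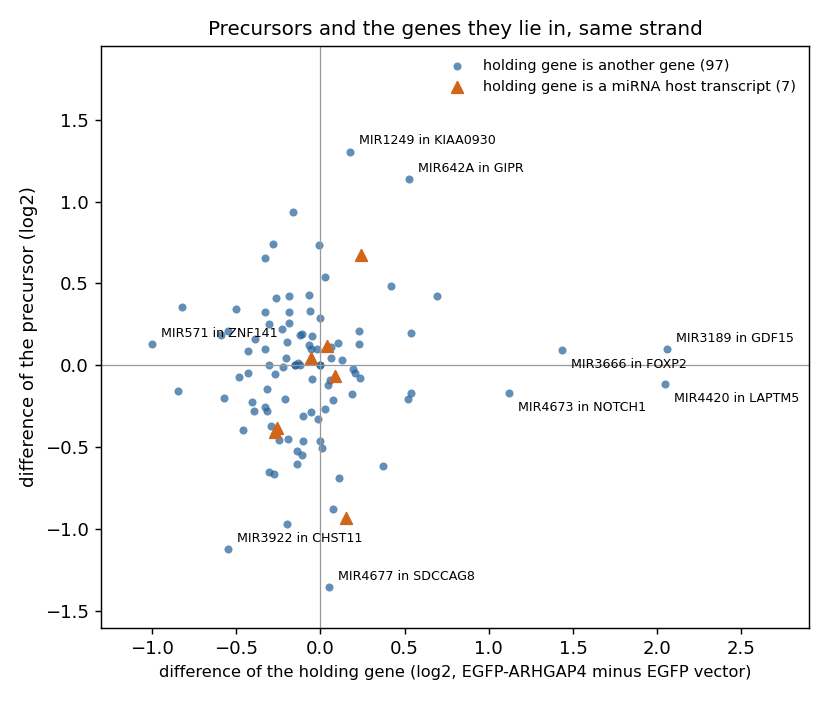
Difference of each precursor (y axis) against the difference of the gene it lies in on the same strand (x axis), both as log2 EGFP-ARHGAP4 minus EGFP vector, for 104 pairs; triangles mark the 7 pairs whose gene is a microRNA host transcript. Precursors in the 4 genes that were 2-fold higher lie near 0, and of the precursors past 0.5 only MIR642A and MIR3922 lie in a gene past 0.5. The value of MIR642A is a mean of 2 features that disagreed.

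The list of 44 protein-coding genes known to carry a microRNA had 24 measured members, with a median difference of -0.17. The median over all genes was -0.03 and that over genes at 5.0 or more, the range of 17 of the 24, was -0.12. Of the 24, 5 were above 0 and 18 below, 1 was higher and 3 lower by at least 0.5, and 1 was lower by 2-fold. Over all genes 4.25% and 6.47% were past 0.5, and 0.581% were 2-fold higher and 0.486% 2-fold lower. Of the 5720 genes at 5.0 or more, 3697 were below 0. Among those 5720, 4.63% were higher and 10.4% lower by at least 0.5, and 0.927% and 0.839% by 2-fold. FSTL1, a secreted glycoprotein gene that carries miR-198, stood at 6.03 and 4.79, 2.36-fold lower. SMC4, a condensin subunit gene that carries miR-15b and miR-16-2, stood at 8.64 and 7.73, 1.87-fold lower, while MIR15B at 2.19 and 2.01 and MIR16-2 at 2.71 and 2.48 lay below the level. SLIT2, a guidance ligand gene that carries miR-218-1, stood at 6.35 and 5.76, and MIR218-1 at 4.05 and 4.24. DNM3, a dynamin gene, stood at 2.83 and 3.53.

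MCM7, a subunit of the replicative helicase, carries miR-25, miR-93 and miR-106b, a set whose members restrain inhibitors of the cell cycle. MCM7 stood at 8.88 and 8.58, a difference of -0.31. Its hairpins did not share 1 direction: MIR25 stood at 5.64 and 4.99, a difference of -0.65, MIR93 held 3.12 in both arrays, and MIR106B stood at 4.14 and 4.39, a difference of 0.26. MIR21, the microRNA most often high in carcinoma, overlaps the end of VMP1; it stood at 4.81 and 4.99, and VMP1 at 9.54 and 9.49; this pair was named after its values were seen.

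Precursors that share a seed are set side by side because their mature strands can bind the same targets. The largest such set was that of let-7, which restrains RAS and HMGA2, with 7 members of chromosomes 3, 5, 9, 12, 19, 22 and X. Their mature strands, with the shared seed in capitals, differ outside it. They are read from the plus strand at chr22:46112752-46112773 (MIRLET7A3), chr9:94178841-94178862 (MIRLET7D), chr19:51692793-51692814 (MIRLET7E), chr12:62603691-62603712 (MIRLET7I) and chr5:8460933-8460951 (MIR4458), and from the minus strand at chr3:52268336-52268357 (MIRLET7G) and chrX:53556299-53556320 (MIR98).
hsa-let-7a-5p: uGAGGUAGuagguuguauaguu
hsa-let-7d-5p: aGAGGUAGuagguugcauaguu
hsa-let-7e-5p: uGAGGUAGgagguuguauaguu
hsa-let-7g-5p: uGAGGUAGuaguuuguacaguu
hsa-let-7i-5p: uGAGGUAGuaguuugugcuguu
hsa-miR-98-5p: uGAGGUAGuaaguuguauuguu
hsa-miR-4458: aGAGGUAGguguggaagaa

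MIRLET7I stood at 3.52 and 2.78, and MIRLET7G at 3.27 and 2.61. Both reached 3.0 in the EGFP vector array alone, so the rule fixed their direction. MIRLET7D stood at 4.68 and 4.44 and MIRLET7A3 at 5.07 and 4.88. MIR98 at 5.17 and 5.33, MIRLET7E at 4.76 and 4.89 and MIR4458 at 3.57 and 3.68 were slightly higher. The median difference of the 7 was -0.20, with 4 lower, MIRLET7I and MIRLET7G among them, and 3 higher.

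Among the 7 seed sets of at least 3 precursors, those of miR-181 and miR-518 had all members on the lower side. MIR181B1 stood at 4.39 and 4.01, MIR181C at 4.77 and 4.31 and MIR181D at 4.97 and 4.67, differences of -0.38, -0.46 and -0.31. Below the level, and named after their values were seen, MIR181A1 differed by -0.23, MIR181A2 by 0.02 and MIR181B2 by 0.20. The miR-30 set split, with MIR30E at 4.91 and 4.44, MIR30C2 at 3.89 and 4.07 and MIR30A at 2.77 and 3.11. MIR30A reached 3.0 in the EGFP-ARHGAP4 array alone, so the rule fixed its direction. Also below the level, and named after their values were seen, MIR30C1 differed by 0.62, MIR30D by -0.20 and MIR30B by -0.09. The strands of both sets are shown so that 1 set of like sign can be set beside 1 that split. MIR181B1 is read from the minus strand at chr1:198858925-198858947, MIR181C and MIR181D from the plus strand at chr19:13874725-13874746 and chr19:13874910-13874932, MIR30A and MIR30C2 from the minus strand at chr6:71403595-71403616 and chr6:71377003-71377025, and MIR30E from the plus strand at chr1:40754371-40754392.
hsa-miR-181b-5p: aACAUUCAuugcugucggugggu
hsa-miR-181c-5p: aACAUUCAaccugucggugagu
hsa-miR-181d-5p: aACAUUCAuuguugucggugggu
hsa-miR-30a-5p: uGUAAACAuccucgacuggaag
hsa-miR-30c-5p: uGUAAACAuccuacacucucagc
hsa-miR-30e-5p: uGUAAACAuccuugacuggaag

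In the miR-518 set of the chromosome 19 cluster, which is known from placenta, MIR518A2 stood at 3.83 and 3.14, MIR518B at 4.60 and 4.39 and MIR518C at 4.07 and 3.94. Of the similarly named genes below the level, MIR518A1 differed by -0.21, MIR518E by -0.52 and MIR518F by -0.36, and MIR518D by 0.38. Of the set that shares the miR-1321 seed, MIR1321 differed by -1.07, MIR4739, at 4.28 and 3.80, by -0.48, and MIR4756, at 5.12 and 5.21, by 0.09. In the miR-378 set MIR378H stood at 3.26 and 2.69, MIR378I at 3.96 and 3.83 and MIR422A differed by 0.44. In the miR-3689 set, 4 paralogs of chromosome 9 whose probes may share signal, MIR3689A stood at 4.98 and 5.01, MIR3689B at 4.71 and 4.57, MIR3689E at 3.002 and 2.33 and MIR3689F at 5.81 and 6.38. MIR1321, MIR378H and MIR3689E reached 3.0 in the EGFP vector array alone, so the rule fixed their direction. MIR221 and MIR222, neighbours on the X chromosome that share a seed and restrain the cell cycle inhibitor p27, stood at 3.61 and 3.85 and at 4.06 and 4.41; they form a pair too small for the naming rule and were named after their values were seen.

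Precursors that follow each other along a chromosome are often cut from 1 primary transcript. The runs given here were set by gene order, without regard to strand or distance, so a run need not be 1 transcript. They hold only precursors that reached 3.0, and measured precursors below that level were passed over. In the imprinted cluster of chromosome 14 a run of 9 had a median difference of -0.24: MIR539 differed by -0.40, MIR1197 by -0.36, MIR654 by -0.34, MIR134 by -0.25, MIR668 by -0.24, MIR541 by -0.07 and MIR329-1 by -0.00058, against 0.29 for MIR758 and 0.52 for MIR412. A second run of 5 in the same cluster had a median of -0.27, with MIR2392 at -0.44, MIR127 at -0.41, MIR770 at -0.27, MIR665 at 0.13 and MIR431 at 0.57. Chromosome 14 precursors below the level went both ways. Among them MIR329-2 differed by 0.53, MIR376B by 0.28, MIR376A2 by -0.50 and MIR1185-2 by -0.27, named after their values were seen. On the X chromosome the run of CLCN5 held MIR188 at 0.41, MIR500A at -0.04, MIR501 at -0.13, MIR500B at 0.13 and MIR502 at 0.49. On chromosome 19, MIR24-2 differed by 0.01 and MIR27A by -0.12 next to MIR181C and MIR181D, and in the placental cluster MIR512-2 differed by 0 and MIR520E by -0.40 next to MIR518B and MIR518C. MIR520E reached 3.0 in the EGFP vector array alone and MIR665 in the EGFP-ARHGAP4 array alone, so the rule fixed their directions. On chromosome 9 MIR3689D1 differed by -0.12 and MIR3689D2 by 0.19 within the miR-3689 run. In the gene AATK on chromosome 17 MIR657 differed by 0.66, MIR338 by 0.33 and MIR1250 by 0.10, while AATK itself stood at 4.66 and 4.33. The value of MIR338 is the mean of 2 features that disagreed, at -0.29 and 0.94.

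**Figure D4:**
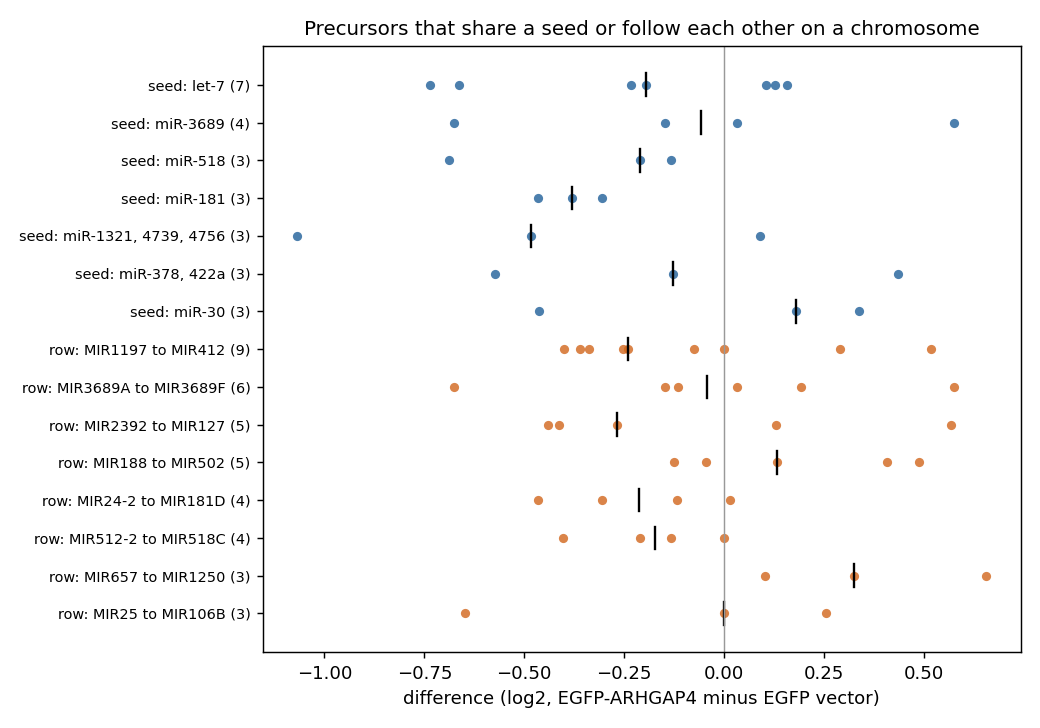
Difference of each precursor (log2, EGFP-ARHGAP4 minus EGFP vector) in the 7 sets that share a seed (blue) and the 8 runs along a chromosome (orange) with at least 3 members; each point is a precursor, black bars are medians, and the number of members is in brackets. Most sets spread to both sides of 0, while the miR-181 and miR-518 sets lie below it and the AATK run (MIR657 to MIR1250) above it, with MIR338 there a mean of 2 features of opposite sign.

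At 7.0 or more in at least 1 array lay 13 precursors. After MIR205, MIR4737 stood at 9.07 and 9.01, MIR663B at 7.45 and 7.64, MIR574 at 7.40 and 7.65, MIR3907 at 7.27 and 7.50, MIR4673 at 7.47 and 7.30, MIR3619 at 7.35 and 7.25 and MIR4519 at 7.19 and 7.33. The small differences of MIR4737 (-0.06) and MIR3619 (-0.10) turned positive after quantile normalization or removal of the level trend. The hairpins of these 7 held between 63.0% and 71.2% G and C. Over all 13 the median was 63.8% with a lower quartile of 59.2%, and the lowest shares were 48.2% in MIR205 and 52.2% in MIR2909. The hairpin of MIR4673 (chr9:136519568-136519626, minus strand, 71.2% G and C) is set against that of MIR579 (chr5:32394378-32394475, minus strand, 32.7%), which stood at 3.09 and 2.13, with the mature strands in capitals.
MIR4673: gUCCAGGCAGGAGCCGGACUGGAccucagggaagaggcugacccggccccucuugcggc
MIR579: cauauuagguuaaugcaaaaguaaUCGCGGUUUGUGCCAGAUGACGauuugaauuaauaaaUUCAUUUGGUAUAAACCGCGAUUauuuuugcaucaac

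Hairpin sequences were found in RefSeq for 294 of the 348 precursors (84.5%) and for 551 of the 674 below the level. The median share of G and C was 57.7% (quartiles 50.7% and 63.8%) in the former and 44.0% in the latter, and the median length was 82.5 and 83 bases. Across all 845 precursors with a hairpin sequence, the share of G and C correlated with the mean log2 value at r = 0.62 and a Spearman coefficient of 0.66. Of hairpins under 40% G and C, 8 of 170 (4.71%) reached 3.0; of those from 50% to 60%, 115 of 238 (48.3%) did, and of those at 70% or more, 25 of 26 (96.2%). Across the same 845 it correlated with the difference between the arrays at r = 0.08 and a Spearman coefficient of 0.09. Within the 294 that reached 3.0 the correlations were weaker for level, r = 0.29, and stronger for the difference, r = 0.15, and within the 79 at 5.0 or more they were 0.07 for level and 0.30 for the difference. Base composition thus moved with the level that chose the genes; its part in that level was not tested. MIR205 stood apart from this relation, with the highest level at 48.2% G and C.

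**Figure D5:**
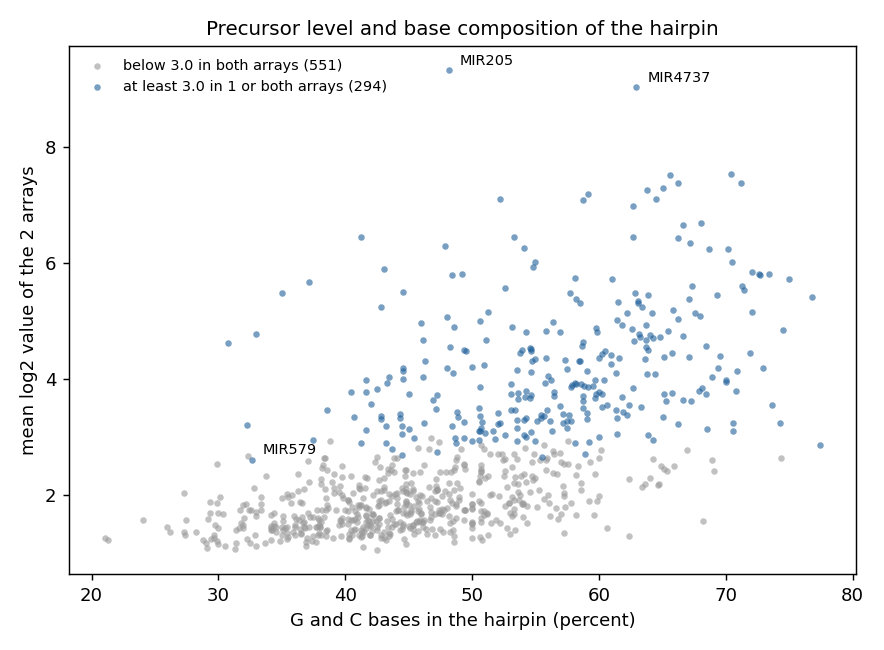
Mean log2 value of the 2 arrays (y axis) against the percentage of G and C bases in the hairpin (x axis) for 845 precursors, blue where at least 1 array reached 3.0 and grey where both were below. The cloud rises to the right, and MIR205 lies far above hairpins of like composition.

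The genes that process microRNAs and act with them differed by small amounts. Of 46 listed genes 26 were measured, with a median difference of -0.20; 4 were above 0 and 20 below, 1 was higher and 1 lower by at least 0.5, and none differed by 2-fold. Of the 5720 genes at 5.0 or more, the range in which 23 of the 26 lie, 3697 were below 0 and the median was -0.12; 4.63% were higher and 10.4% lower by at least 0.5, and 0.927% and 0.839% by 2-fold. In the nucleus DGCR8, the partner of Drosha, stood at 5.97 and 5.77, and XPO5, exportin 5, at 8.06 and 7.77. DROSHA, DICER1 and AGO2 were not analysed here. The gene past 0.5 on the lower side was TNRC6C, a scaffold of the silencing complex, at 5.17 and 4.64, and its paralogs TNRC6A and TNRC6B differed by -0.33 and -0.21. The gene past 0.5 on the higher side was ZSWIM8, which directs the decay of microRNAs bound to certain targets, at 5.24 and 5.76; it lies on chromosome 10. TARBP2, a partner of Dicer, stood at 4.69 and 4.89, and LIN28B, which blocks let-7 maturation, at 2.03 and 2.37. Removal of the level trend brought the median of the list from -0.20 to -0.08 and quantile normalization to -0.10.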

How the data were processed

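The table deposited by the authors holds 1 normalized log2 value for each of 44629 features in each of 2 arrays, with summarisation, normalization and software not given in the sources used here. Base 2 was read from the range of values. The quartiles of both arrays nearly coincide (2.03 and 4.66 against 2.04 and 4.60), so differences are relative to the bulk of features. Symbols came from the platform annotation (15835 features), and features of a symbol were averaged. The pooled SD of the difference between features of 1 gene was 0.38 in 19 microRNA genes and 0.20 in 478 genes that reached 3.0. In several of the 19, such as MIR4640 and MIR4646, all features held identical values. Such features are not separate measurements and lower the pooled SD. Positions and strands in RefSeq (GRCh38.p14) served only to place precursors inside genes and in order; hairpins and mature strands came from RefSeq. Precursors lying in a gene were paired with a protein-coding gene first, then the shortest.

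The genes, lists, thresholds and naming rule were chosen with earlier results of these data known. The rule named every host transcript, the 8 highest precursors, the 10 largest and 10 smallest differences, the 3 precursors on each side of the threshold, sets of at least 3 sharing a seed or a run, and list genes past 0.5. Alternatives were quantile normalization, median centring, loess (span 0.3), the highest feature per gene, levels of 3.5, 4.0 or none, 1.5-fold, and leaving out chromosome 10. Calculations were tested on simulated data. Tools were statsmodels 0.14.6, numpy 2.4.6, matplotlib 3.10.9, pandas 2.3.3 and Python 3.11.15. The number of arrays limits the precision.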

Additional observations from a re-analysis of the deposited data

How the results depend on the processing

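Scaling changed none of the 2-fold counts: 3 higher and 6 lower microRNA genes were found as deposited and under quantile normalization, centring and loess, and the same 9 precursors in each. With the highest feature per gene MIR642A went from 1.14 to -0.064, leaving 2 higher. At 1.5-fold 21 were higher and 31 lower, and at a level of 4.0 there were 3 lower. The median of precursors lay between 0 and 0.05. That of host transcripts changed sign, from 0.02 to -0.05 at a level of 4.0 and to -0.10 with no level. The median of protein-coding hosts ranged from -0.19 to -0.11 and that of pathway genes from -0.20 to -0.08. The correlation of precursors with the genes they lie in ranged from 0.04 to 0.12. Scaling moved the median of genes that reached 3.0 by at most 0.07. No paired analysis was possible because each group has 1 array.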

Other observations

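Several precursors with well known links to growth arrest or inflammation lay below the level that defined the report, and are given here as values chosen after they were seen. MIR34A, a direct target of p53, stood at 2.80 in both arrays to the last digit, and MIR34B, of a second p53-responsive locus, at 1.72 with the EGFP vector and 2.08 with EGFP-ARHGAP4. MIR155, an inflammatory microRNA gene, stood at 2.48 and 2.45, and MIR203A, known from differentiating keratinocytes, at 1.42 and 1.28. MIR146A, which restrains signalling to NF-kB, just reached the level, at 2.92 and 3.05. Of the 687 microRNA genes below 3.0, 1 was higher and 1 lower by 2-fold, MIR4436A at 1.51 and 2.67 and MIR4441 at 2.84 and 1.76.

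On chromosome 10 an earlier look at these arrays found lower values from the start of the chromosome up to ZNF37A. In that stretch the 86 other genes that reached 3.0 had a median difference of -0.79, with 74 below 0, while the 4 microRNA genes there, MIR3155A, MIR4481, MIR4675 and MIR604, had a median of 0.04 and 1 below 0. MIR604 lies in SVIL, which stood at 5.25 and 4.41, and itself stood at 3.87 and 3.71. After ZNF37A the 324 other genes had a median of 0.22 and the 12 microRNA genes a median of 0.02. Whether microRNA genes differ from their neighbours there was not tested.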
